A study of Mus musculus with 10 samples.

Results

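The mannose receptor gene Mrc1 (CD206) was followed together with 8 other genes of receptors that bind mannose, galactose or mannose 6-phosphate: Mrc2, Clec10a, Clec4n, Cd209f, Cd209g, M6pr, Igf2r and Lman1. The members were the rows of the deposited count table with these gene symbols, 9 of 53546 rows, and all 9 were found. Of these, 8 passed the filter on low counts, as did 14023 genes in all, and Igf2r did not. The cells were macrophages of the central nervous system's borders (CAMs), sorted from the brains of individual untreated C57BL/6N mice aged 6 to 8 weeks. The mice carried Mrc1-CreERT2 on both chromosomes (homozygous, titled Cre-Cre, 4 mice), on 1 chromosome with a wild-type partner (heterozygous, titled Cre-pos, 3 mice) or on neither (wild type, 3 mice). CreERT2 is a Cre recombinase fused to a hormone-binding part of the oestrogen receptor, which keeps it inactive until an inducer is given, and the labels list no treatment in any group. Whether the insertion also changes the Mrc1 protein is not given in the labels, and the labels used here do not state how the sort was gated.

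Macrophages take up glycoproteins through lectins, receptors that recognise particular sugars at the ends of glycan chains. Mrc1 cycles between the surface and endosomes and clears glycoproteins that end in mannose, fucose or N-acetylglucosamine, while Clec10a binds galactose and N-acetylgalactosamine. M6pr and Igf2r carry enzymes tagged with mannose 6-phosphate to the lysosome, and Lman1 binds mannose-rich glycoproteins inside the cell on their way from the endoplasmic reticulum to the Golgi. The question was whether these related receptors shift in the genotypes in which Mrc1 counts are lower.

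Libraries held 22986972 to 36575446 counts. Levels are given as CPM, counts per 1000000 counts of a library after scaling, and SD is taken over the mice of a genotype. In bulk RNA fewer cells of a type and less RNA per cell cannot be told apart. All 10 border macrophage markers checked besides Mrc1 (among them Cd163, Lyve1, Pf4 and Stab1) had counts in every library, with a summed level of 13834 to 16048 CPM in wild-type, 14575 to 17365 in heterozygous and 19546 to 19871 in homozygous libraries. All 8 microglia markers were also detected, with sums of 5658 to 9498, 6659 to 8685 and 5794 to 7351 CPM that are mostly Fcrls. Gene by gene, 7 of the 8 were below 0 in homozygotes against wild type, with a median log2 fold change of -1.13. EdgeR called 0 of them, and 4 were lower at an unadjusted p under 0.05. Of all tested genes, 0.0642% were called in this comparison and 7.52% had an unadjusted p under 0.05. Monocyte and dendritic cell markers, whose sum is mostly the MHC class II genes H2-Aa, H2-Ab1 and Cd74, summed to 14600 to 27431 CPM in wild-type, 8495 to 19057 in heterozygous and 2252 to 8415 in homozygous libraries, with Itgax at 0 counts in all of them. B cell markers summed to 429 to 711 CPM in wild-type, 329 to 445 in heterozygous and 251 to 410 in homozygous libraries. The marker sums of border macrophages, of monocytes and dendritic cells and of B cells thus did not overlap between homozygous and wild-type libraries. Of single tested genes, 7.97% did not overlap between these genotypes. Single markers called by edgeR in homozygotes against wild type were Lyve1 (higher, log2 fold change 0.85, adjusted p = 0.0215), Ccr2 (lower, -4.18, adjusted p = 0.00216) and the astrocyte gene Gja1 (0 CPM in wild type and 10.5 ± 4.51 CPM in homozygotes, SD, n = 4, adjusted p = 0.0315). The 10 astrocyte, oligodendrocyte and neuron markers that include Gja1 summed to 110 to 180 CPM in wild-type, 88.4 to 140 in heterozygous and 67.8 to 124 in homozygous libraries. The summed level was thus not higher in homozygotes, unlike Gja1. Gene by gene, 6 of the 8 tested were above 0 in homozygotes against wild type and 2 below, with a median log2 fold change of 0.40. At an unadjusted p under 0.05, 2 were higher and 1 was lower, and of the list only Gja1 was called. Of 19 alternatives, 17 kept the call of Ccr2, 11 that of Lyve1 and 7 that of Gja1. Lyve1 was lost without any 1 homozygous library or wild-type replicate 1 or 2 (adjusted p = 0.0501 to 0.105), and Gja1 without any 1 library other than wild-type replicate 3 (adjusted p = 0.0566 to 0.138). The part of these markers in the results below was not tested.

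Mrc1 fell stepwise with the number of modified alleles. Wild-type libraries held 3748, 3065 and 3631 CPM of Mrc1, heterozygous ones 1985, 2188 and 2286 CPM, and homozygous ones 441, 455, 542 and 519 CPM. The 3 genotypes did not overlap, and the spread within each was small, with a coefficient of variation of 10.5% in wild type, 7.13% in heterozygotes and 9.93% in homozygotes. On the linear scale the first modified allele went with 1328 CPM less and the second with 1664 CPM less. The midpoint of the wild-type and homozygous means, 1985 CPM, lay under the heterozygous mean of 2153 ± 153 CPM (SD, n = 3). Divided by exon length (CPM per kilobase), Mrc1 ranked at place 70 of 13678 genes by its wild-type mean, at place 113 in heterozygotes and at place 608 in homozygotes. The residual Mrc1 counts in homozygotes thus still ranked above those of most expressed genes per length.

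The log2 fold change of Mrc1 between homozygous and wild-type libraries was -2.83 (95% interval -3.07 to -2.60, adjusted p = 1.28e-06 edgeR quasi-likelihood, Benjamini-Hochberg over all genes). Between homozygous and heterozygous libraries it was -2.14 (-2.37 to -1.91, adjusted p = 1.76e-05). Between heterozygous and wild-type libraries it was -0.69 (-0.94 to -0.45), lower in 3 of 3 heterozygotes, and did not pass over all genes (edgeR adjusted p = 0.30), while DESeq2 called it at -0.71 (adjusted p = 2.47e-07). The difference between the allele steps on the log2 scale, a contrast added after the values had been seen, was -1.44 (SE 0.18) and did not pass over all genes either (edgeR adjusted p = 0.154). Equal steps in CPM also give a value below 0 on the log2 scale, so its sign alone does not show unequal steps in CPM. That contrast called 0% of all genes, with 2 of 8 members and 4.9% of all genes at an unadjusted p under 0.05. A linear term for the number of alleles gave -1.46 per allele (SE 0.14, edgeR adjusted p = 0.00607).

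The 250 bases before the Mrc1 start site are shown because this is the gene the allele was built on, and macrophage genes are often controlled by the factor PU.1, whose preferred core is GAGGAA. They are from RefSeq on GRCm38.p6, strand +, chr2:14229164-14229413, and capitals mark GAGGAA read on either strand.
Mrc1: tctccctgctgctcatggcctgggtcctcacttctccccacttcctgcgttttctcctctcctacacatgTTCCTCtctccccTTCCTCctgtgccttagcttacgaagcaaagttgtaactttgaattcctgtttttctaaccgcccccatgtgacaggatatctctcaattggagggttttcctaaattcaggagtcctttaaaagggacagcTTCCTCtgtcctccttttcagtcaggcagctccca
The core occurred 3 times, and 23.3% of all 32851 windows of the same length held it at least once. How many windows held it 3 or more times was not counted. A match is a description of the letters and not a site shown to be bound. RefSeq windows were at hand for 4 of the 9 members (Mrc1, Cd209f, Cd209g and Igf2r).

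**Figure D1:**
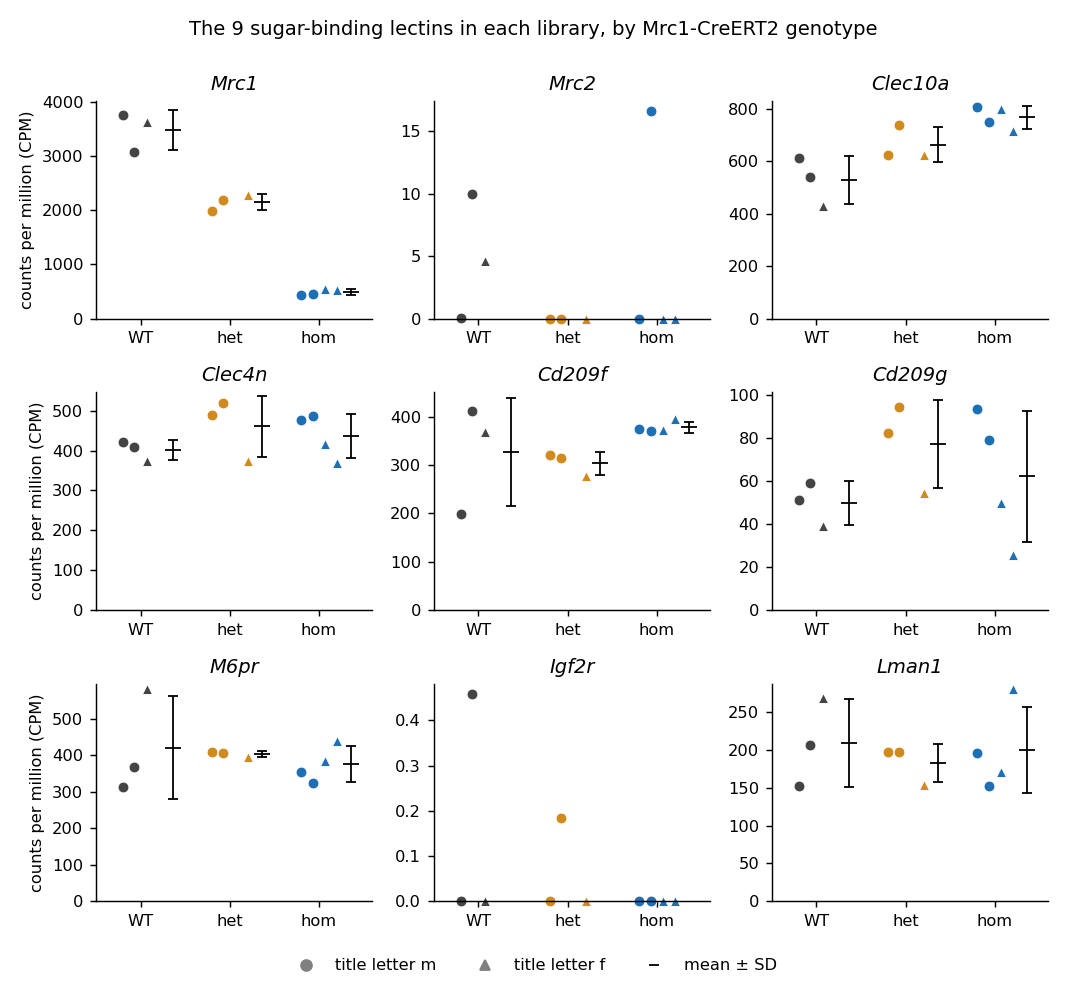
Level of each of the 9 lectins in CPM (vertical axes, each from 0) in wild-type (WT), heterozygous (het) and homozygous (hom) libraries. Each point is a mouse, circles and triangles are the letters m and f of the sample titles, and bars show mean ± SD where every library had a count; Mrc1 falls in steps from 3065 to 3748 CPM to 441 to 542 CPM, and Clec10a lies higher in all homozygous libraries than in any wild-type library.

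Apart from Mrc1, no member passed edgeR's test in any comparison between genotypes. In homozygotes against wild type 1 of the 8 tested members was called (Mrc1, lower), where 0.0642% of all tested genes were and 0.0428% were called lower. At an unadjusted p under 0.05 there were 2 members (Mrc1 and Clec10a) and 7.52% of all genes. In homozygotes against heterozygotes Mrc1 alone was called, where 0.0214% of all genes were and 0.0143% were called lower, with 1 member and 4.86% of all genes at an unadjusted p under 0.05. In heterozygotes against wild type edgeR called 0 members and 0% of all genes, with 2 members (Mrc1 and Clec10a) and 5.82% of all genes at an unadjusted p under 0.05. For the number of alleles it called 1 member, Mrc1, lower, where 0.0428% of all genes were called and 0.0285% were called lower, with 2 members and 5.78% of all genes at an unadjusted p under 0.05. The median log2 fold change of the 8 members was 0.03 in homozygotes and -0.08 in heterozygotes against wild type, beside 0.02 and 0.01 over all tested genes. The heterozygous and homozygous comparisons share the same 3 wild-type libraries.

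**Figure D2:**
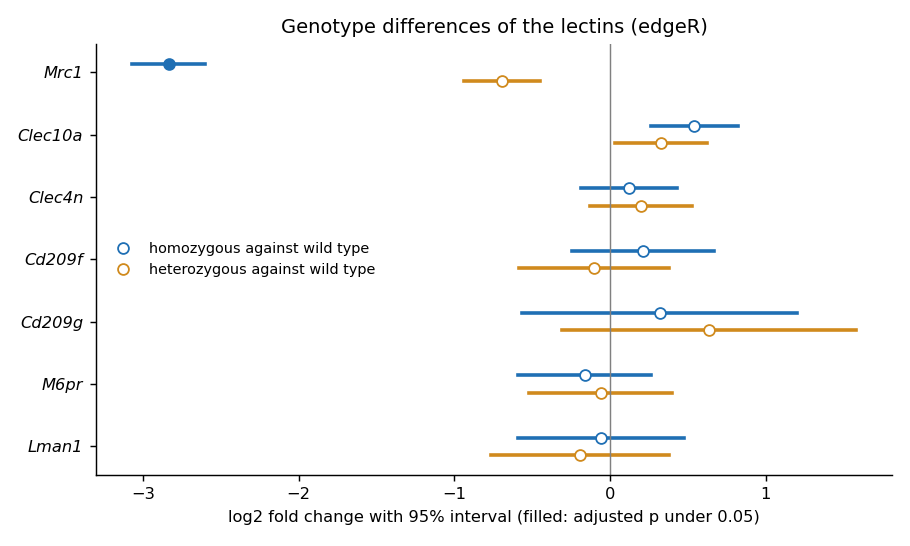
Log2 fold change (horizontal axis) with its 95% interval for 7 lectins in homozygous and in heterozygous against wild-type libraries; filled points have an edgeR adjusted p under 0.05. Only the homozygous value of Mrc1, -2.83, is filled, and the intervals of Clec10a, 0.26 to 0.82 and 0.03 to 0.62, lie above 0 without passing the test over all genes.

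Clec10a, the galactose-type lectin known as Mgl1 or CD301a, had the next lowest edgeR p of the members after Mrc1 in both comparisons with wild type. Homozygous libraries held 807, 751, 802 and 715 CPM, heterozygous ones 624, 741 and 626 CPM, and wild-type ones 612, 543 and 431 CPM. Every homozygous and every heterozygous library was above every wild-type library, and the heterozygous and homozygous ranges met. Homozygotes averaged 145% and heterozygotes 125% of the wild-type mean. The log2 fold change was 0.54 (SE 0.13, interval 0.26 to 0.82) in homozygotes and 0.33 (SE 0.13, interval 0.03 to 0.62) in heterozygotes, with edgeR adjusted p = 0.321 and adjusted p = 0.791, so neither passed. Per allele it was 0.27 (SE 0.06, edgeR adjusted p = 0.263). Among all tested genes 7.97% did not overlap between homozygotes and wild type and 9.6% between heterozygotes and wild type, with 4.4% and 5.43% higher in the modified genotype.

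DESeq2, which called 290 genes in homozygotes against wild type where edgeR called 9, also called Clec10a (log2 fold change 0.52, DESeq2 adjusted p = 0.00653), while limma-voom gave an adjusted p = 0.118 and edgeR without each library in turn gave 0.214 to 0.625. The absolute gain of 240 CPM of Clec10a stood beside a loss of 2992 CPM of Mrc1. The marker sum of border macrophages was also higher in every homozygous than in every wild-type library. Per 1000 CPM of these 10 markers, Clec10a was at 31.0 to 44.2 CPM in wild type, 36 to 50.8 CPM in heterozygotes and 36.4 to 40.8 CPM in homozygotes. On that scale the 3 genotypes overlapped, and the part of the markers in Clec10a was not tested.

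Clec10a has a close paralog, Mgl2, which encodes the other mouse galactose-type lectin (CD301b). In GENCODE vM21 transcripts, 270 of the 3181 stretches of 50 bases in Clec10a also occur in Mgl2, so part of the reads of the pair could not be assigned for certain. Mgl2 was at 817, 553, 1429 and 1782 CPM in homozygous, at 616, 584 and 884 in heterozygous and at 556, 583 and 725 in wild-type libraries. Homozygous replicates 3 and 4, both with the letter f in their titles, were thus far above all other libraries. Homozygous replicate 2 was under every wild-type library. Its log2 fold change in homozygotes was 0.88 (SE 0.35, edgeR adjusted p = 0.639). With the counts of both genes summed into 1 row, the value for the pair was 0.74 (SE 0.19, edgeR adjusted p = 0.391) in homozygotes and 0.24 (SE 0.20, adjusted p = 1) in heterozygotes.

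Mrc2, the collagen-binding relative of Mrc1 also called Endo180 or uPARAP and known mainly from fibroblasts, was close to absent. It had 609 counts in homozygous replicate 2, 327 and 147 counts in wild-type replicates 2 and 3, 2 counts in wild-type replicate 1, and 0 counts in the other 6 libraries. These counts amount to 16.6, 10, 4.58 and 0.0681 CPM. The 3 heterozygous libraries were all at 0, where a limit of 3 counts is 0.0928 to 0.131 CPM. Fibroblast markers summed to 33.1 CPM in wild-type replicate 2, where 5 of 8 had a count, but to 6.40 CPM in homozygous replicate 2 and 0.872 CPM in wild-type replicate 3, and their part in the Mrc2 counts was not tested. With the reads in so few libraries, the fold in homozygotes has an interval of -6.55 to 6.08 on the log2 scale (edgeR adjusted p = 0.999) and shows no direction. In heterozygotes against wild type DESeq2, which called 236 genes there, called Mrc2 lower (adjusted p = 1.54e-09) and edgeR did not (adjusted p = 0.791). The ranges did not overlap, as in 9.6% of all tested genes. The 0.0681 CPM of wild-type replicate 1 lies under the limit of 3 counts, however, so that library cannot be told from the heterozygous ones. The other 3 homozygous libraries had no Mrc2 count at all, so no shift was shared by the homozygous mice.

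Clec4n encodes dectin-2, which recognises mannose-rich chains on fungi and signals through an Fc receptor chain. It was at 421, 410 and 374 CPM in wild-type, 490, 520 and 374 in heterozygous and 477, 485, 417 and 369 in homozygous libraries, and the genotypes overlapped throughout. Its log2 fold change was 0.12 in homozygotes (interval -0.19 to 0.43) and 0.20 in heterozygotes (interval -0.13 to 0.53), with edgeR adjusted p = 0.999 and adjusted p = 0.977. Per kilobase, wild-type Clec4n was at 283 ± 17.3 CPM (SD, n = 3), next to 546 ± 57.3 for Mrc1, 182 ± 31.5 for Clec10a, 164 ± 56.5 for Cd209f, 101 ± 34.0 for M6pr, 23.7 ± 6.61 for Lman1 and 13.8 ± 2.82 for Cd209g. In that order Clec10a and Cd209f lay within each other's spread. In homozygotes the order per kilobase became Clec4n (308 ± 38.7), Clec10a (265 ± 15.1), Cd209f (190 ± 5.64), M6pr (90.1 ± 11.8) and Mrc1 (76.8 ± 7.63), each with SD and n = 4. Mrc1 thus stood first among the members in wild type and below 4 of them in homozygotes, where the mean ± SD ranges of M6pr and Mrc1 met.

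Cd209f and Cd209g, also named SIGNR8 and SIGNR7, are mouse relatives of the human mannose-binding receptor DC-SIGN and lie close together on chromosome 8. Their start sites are shown because they share a long identical run upstream while their counts differed. The windows are from RefSeq on GRCm38.p6, chr8:4105765-4106014 on strand - for Cd209f and chr8:4134486-4134735 on strand + for Cd209g, and capitals mark the longest run of identical bases.
Cd209f: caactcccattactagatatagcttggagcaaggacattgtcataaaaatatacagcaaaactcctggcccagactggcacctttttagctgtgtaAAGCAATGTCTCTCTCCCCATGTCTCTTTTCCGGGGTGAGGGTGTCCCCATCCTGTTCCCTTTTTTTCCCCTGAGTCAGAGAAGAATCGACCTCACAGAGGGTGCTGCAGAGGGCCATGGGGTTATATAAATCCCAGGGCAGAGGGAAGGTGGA
Cd209g: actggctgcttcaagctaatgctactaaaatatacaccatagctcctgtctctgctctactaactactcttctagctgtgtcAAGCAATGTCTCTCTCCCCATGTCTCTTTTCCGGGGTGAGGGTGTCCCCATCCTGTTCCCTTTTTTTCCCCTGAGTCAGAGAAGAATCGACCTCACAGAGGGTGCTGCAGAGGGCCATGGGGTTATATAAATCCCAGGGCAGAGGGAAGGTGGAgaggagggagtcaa
The run is 154 bases long and ends at the start site in Cd209f and 14 bases before it in Cd209g. With the windows aligned on it, 189 of 236 bases (80.1%) were identical. No window of another gene in the RefSeq table held the run, and the windows of Cd209a to Cd209e shared at most 10 bases in a row with that of Cd209f. GAGGAA occurred 0 times in both windows.

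Cd209f was at 200 CPM in wild-type replicate 1 and at 412 and 369 CPM in the other wild-type libraries, at 321, 316 and 277 CPM in heterozygotes and at 374, 370, 374 and 394.9 CPM in homozygotes. All homozygous libraries were above all heterozygous ones, but wild type ran from 200 to 412 CPM across both. Between homozygotes and heterozygotes 7.47% of all tested genes did not overlap, and 3.75% of all tested genes were higher in homozygotes in this way. The log2 fold change of Cd209f was 0.21 in homozygotes (interval -0.24 to 0.66) and -0.10 in heterozygotes (interval -0.59 to 0.38) against wild type, and 0.31 between homozygotes and heterozygotes, with edgeR adjusted p of 0.999, 1 and 1. Without wild-type replicate 1, whose Cd209f was lowest, the homozygous value turned to -0.04.

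Cd209g was lower than Cd209f in every library. Wild-type libraries held 51.0, 59.2 and 39.0 CPM of Cd209g, heterozygous ones 82.3, 94.5 and 54.4 CPM, and homozygous ones 93.6, 79.2, 49.9 and 25.7 CPM. The homozygous libraries ran from below every other library to just under the highest heterozygous one, and the genotypes overlapped. The log2 fold change was 0.32 in homozygotes (interval -0.56 to 1.20) and 0.63 in heterozygotes (interval -0.31 to 1.58), with edgeR adjusted p = 0.999 and adjusted p = 0.925. In GENCODE vM21, 646 stretches of 50 bases are common to both genes, 29.8% of those of Cd209f and 16.6% of those of Cd209g, so part of their reads could not be assigned for certain to either gene. Summed into 1 row, the pair gave 0.23 in homozygotes (SE 0.19, edgeR adjusted p = 0.974) and 0.02 in heterozygotes (adjusted p = 1). Of the pair's counts Cd209g took 9.55% to 20.4% in wild type, 16.4% to 23% in heterozygotes and 6.1% to 20% in homozygotes. Both measures overlapped between the genotypes. The related Cd209a, a dendritic cell gene, was at 34.5 to 160 CPM in homozygous and 90.9 to 123 CPM in wild-type libraries, and Cd209b, a marginal zone macrophage receptor, at 61.1 to 165 and 65.2 to 123 CPM.

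**Figure D3:**
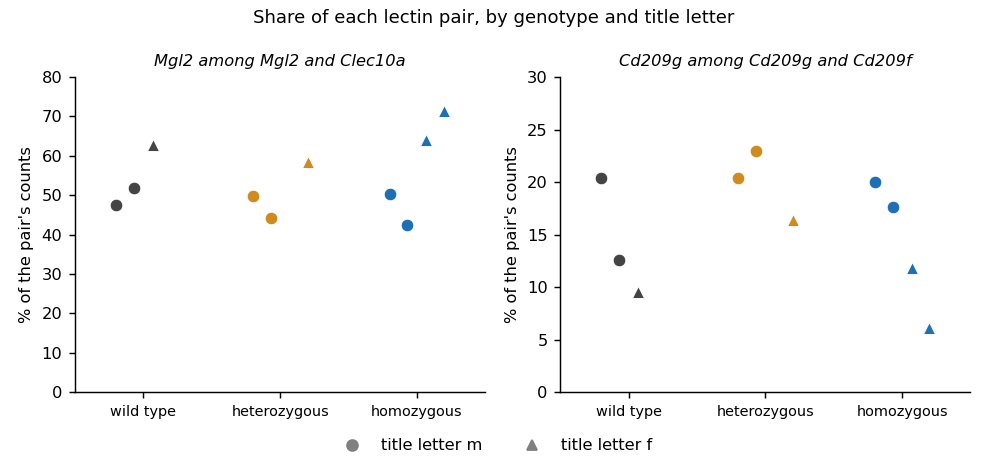
Share of a paralog pair's counts (vertical axes, percent) taken by Mgl2 of Mgl2 and Clec10a, and by Cd209g of Cd209g and Cd209f, in each library by genotype; circles and triangles are the title letters m and f. Mgl2 takes 42.4% to 51.8% in libraries with the letter m and 58.5% to 71.4% in those with f, and the genotypes overlap in both panels.

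M6pr, the cation-dependent mannose 6-phosphate receptor, was at 313, 369 and 581 CPM in wild-type and 353, 324, 385.5 and 439 CPM in homozygous libraries, with heterozygotes at 404 ± 7.43 CPM (SD, n = 3). Wild type covered the other genotypes completely, since its replicate 3 was the highest of all libraries. The log2 fold change was -0.16 in homozygotes (interval -0.59 to 0.26) and -0.06 in heterozygotes (interval -0.52 to 0.40), with edgeR adjusted p = 0.999 and adjusted p = 1. Without wild-type replicate 3 the homozygous value was 0.14. In GENCODE vM21, 6.12% of the 50-base stretches of M6pr also occur in its processed pseudogene M6pr-ps.

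Igf2r, the cation-independent mannose 6-phosphate receptor that also clears insulin-like growth factor 2, had 15 counts in wild-type replicate 2, 6 counts in heterozygous replicate 2 and 0 counts in the other 8 libraries. A count of 0 allows up to 3 counts, or 0.0820 to 0.131 CPM over these libraries, for counting error only. Of the mannose 6-phosphate receptors only M6pr was thus measurable here, and whether Igf2r differed was not detectable at this depth.

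Lman1, also called ERGIC-53, was at 152, 206 and 268 CPM in wild-type, 197, 197 and 154 CPM in heterozygous and 196, 153, 171 and 281 CPM in homozygous libraries. The genotypes overlapped, and each had a similar lowest library. The log2 fold change was -0.06 in homozygotes (interval -0.60 to 0.47) and -0.19 in heterozygotes (interval -0.77 to 0.38), with edgeR adjusted p = 0.999 and adjusted p = 1.

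Sample titles carry the letter m or f, and the letter matched Xist and Y-linked counts in 10 of 10 libraries. Wild type had 2 libraries with m and 1 with f, heterozygotes 2 and 1, and homozygotes 2 and 2 (f in replicates 3 and 4). In wild type and in heterozygotes a difference between the letters thus rests on 1 library with f. With genotype in the fit, a contrast added after the values had been seen, edgeR called 0 members and 0.0214% of all genes between the letters, with 4 members at an unadjusted p under 0.05 beside 6.14% of all genes. Cd209g was higher with m in each genotype (log2 difference 0.85, SE 0.23, adjusted p = 0.669), as was Clec4n (0.29, SE 0.08, adjusted p = 0.669). Mgl2, the paralog of Clec10a, was lower with m in each genotype (-0.79, SE 0.17, adjusted p = 0.563). Separation in the same direction in all 3 genotypes occurred in 5.02% of tested genes. M6pr and Mrc1 had values of -0.34 (edgeR adjusted p = 0.773) and -0.17 (edgeR adjusted p = 0.794).

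Beyond the members, 5 wider lists of sugar-binding and glycan-handling genes were counted in homozygotes against wild type, where 0.0428% of all genes were called lower. Of 22 tested other C-type lectins, 1 was called: Clec12a, an inhibitory receptor for uric acid crystals, fell from 211 ± 49.1 CPM (SD, n = 3) in wild type and 184 ± 13.7 CPM (n = 3) in heterozygotes to 90.7 ± 11.8 CPM (n = 4) in homozygotes. Its log2 fold change was -1.22 (SE 0.17, edgeR adjusted p = 0.049, close to the threshold of 0.05). Over 19 alternatives the value stayed between -1.39 and -1.05, but 5 of them kept the call, and without any 1 library other than wild-type replicate 2 the adjusted p was 0.0774 to 0.19. In this list 17 of 22 values were above 0, with a median of 0.33 beside 0.02 over all genes. At an unadjusted p under 0.05 there were 6, of which 5 were higher and 1 lower, beside 7.52% of all genes. Among its most abundant genes Colec12, a scavenger receptor with a galactose-binding lectin domain, was at 469, 439, 454 and 392 CPM in homozygous, 225, 262 and 324 CPM in heterozygous and 242, 299 and 271 CPM in wild-type libraries. All homozygous libraries of Colec12 were above all others, and its log2 fold change of 0.70 (SE 0.14) did not pass (edgeR adjusted p = 0.218). Per 1000 CPM of the border macrophage markers, Colec12 was at 17.5 to 19.5 CPM in wild type, 14.3 to 18.7 CPM in heterozygotes and 20 to 23.6 CPM in homozygotes. All 10 of these markers were themselves above 0 in homozygotes against wild type. How many of all genes separate on that scale was not counted, and the part of the markers in Colec12 was not tested. Clec4a3, an inhibitory lectin, was also higher in every homozygous library than in any wild-type one, with a log2 fold change of 0.36 (edgeR adjusted p = 0.565). Among all tested genes, 4.4% were higher in homozygotes than in wild type without overlap, and 3.75% were higher than in heterozygotes in this way.

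None of the other 4 lists had a gene called by edgeR in homozygotes against wild type. Of 6 tested galectins, which bind beta-galactosides, 3 values were above 0 and the median was -0.09, with 1 lower at an unadjusted p under 0.05. Lgals3bp was the most abundant, with a log2 fold change of -0.38 (edgeR adjusted p = 0.663), followed by Lgals9 at -0.31 (adjusted p = 0.932) and Lgals1 at 0.13 (adjusted p = 0.999). Of 21 genes that tag enzymes with mannose 6-phosphate or sort their receptors, 11 values were above 0 and the median was 0.05, with 3 at an unadjusted p under 0.05. Snx2, a sorting nexin of the retromer pathway that returns receptors from endosomes, did not overlap between homozygotes (1039 ± 133 CPM, SD, n = 4) and wild type (722 ± 70.4 CPM, n = 3), with a log2 fold change of 0.53 (SE 0.12, edgeR adjusted p = 0.301). Of all tested genes 7.97% did not overlap in this comparison. The sorting nexin Snx5 had a value of -0.09 (edgeR adjusted p = 0.999) and the clathrin adaptor subunit Ap1b1 0.41 (adjusted p = 0.707). Of 21 lectins and cargo receptors of the endoplasmic reticulum, 15 values were above 0 and the median was 0.16, with 3 higher at an unadjusted p under 0.05. The chaperone lectin Canx had a value of 0.28 (edgeR adjusted p = 0.663) and its soluble relative Calr 0.13 (adjusted p = 0.999), while the cargo lectin Lman2 had 0.20 (adjusted p = 0.843).

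The 14 lysosomal glycosidases and their partners were above 0 in 13 cases, with a median of 0.23, and 4 were higher and 1 lower at an unadjusted p under 0.05, where 7.52% of all genes were. Hexa, which encodes a lysosomal hexosaminidase chain, was at 2994 ± 103 CPM (SD, n = 4) in homozygotes and 2396 ± 298 CPM (n = 3) in wild type, with a log2 fold change of 0.32 (SE 0.09, edgeR adjusted p = 0.443). Ctsa, a protective lysosomal carboxypeptidase, had a value of 0.22 (edgeR adjusted p = 0.771). In heterozygotes the 5 lists had 0 genes called by edgeR, 8 at an unadjusted p under 0.05 where 5.82% of all genes were, and medians from -0.35 to 0.15.

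**Figure D4:**
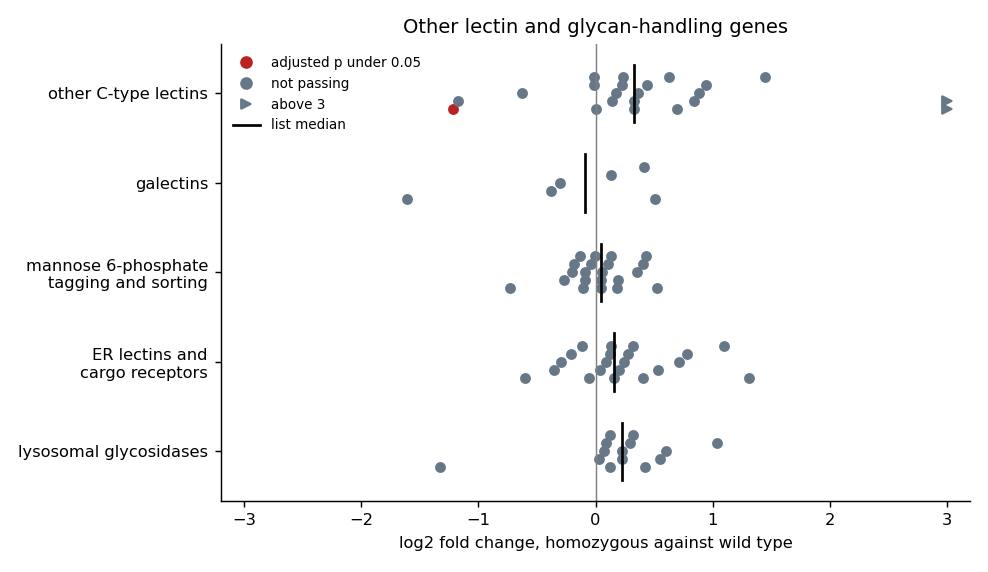
Log2 fold change in homozygous against wild-type libraries (axis) for each tested gene of 5 lists of lectin and glycan-handling genes, with the list medians marked and values above 3 drawn at the edge. The medians run from -0.09 in the galectins to 0.33 in the other C-type lectins, and only Clec12a, at -1.22, passed the test.

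The profile over the 10 libraries most like that of Mrc1, by Euclidean distance between centred log2 CPM among 8132 genes with a mean of at least 10 CPM, was that of Cd9 (distance 1.38). It was followed by Slamf9 (1.53), Tmem119 (1.81), Cyp4f18 (1.81) and F11r (1.82), against a median of 4.25 over all genes. Of these, Slamf9 was called in homozygotes against wild type (log2 fold change -2.29, edgeR adjusted p = 0.0315), a call that 7 of 19 alternatives kept and that was lost without any 1 library (adjusted p = 0.0566 to 0.138). The profiles nearest to Clec10a were those of Clec4a3 (0.321), Pf4 (0.367), Ap2a2 (0.379), Tbc1d22a (0.383) and Laptm4a (0.421), against a median of 1.63. For Cd209f they were Atp13a2 (0.367), Uggt1 (0.39), Pgap2 (0.401), Wwp2 (0.432) and Ssr3 (0.44), against a median of 1.68. A gene that did not vary at all would lie at 0.848 from Clec10a and 0.938 from Cd209f, farther than each of the 5 genes named.

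The genes beside Mrc1 were read because the allele was built at this locus. Of the 4 nearest protein-coding genes on each side in RefSeq order, 7 were tested, and edgeR called 0 in homozygotes against wild type, with 0 at an unadjusted p under 0.05. Stam, an endosomal sorting adaptor, averaged 34.9 CPM in wild type, 30.7 in heterozygotes and 33.2 in homozygotes, and Nsun6, a tRNA methyltransferase, 13.2, 11.3 and 11.5 CPM. St8sia6, a sialyltransferase, ranged from 0 to 30.6 CPM in wild type and from 0 to 1.74 CPM in homozygotes (edgeR adjusted p = 0.819). Arl5b ranged from 0.0612 to 35.8 CPM in wild type and from 5.04 to 22.5 CPM in homozygotes (edgeR adjusted p = 0.999). Tmem236, Hacd1 and Slc39a12 averaged 1.70, 0.964 and 0.364 CPM in wild type and 0.838, 1.48 and 0.0377 CPM in homozygotes. Cacnb2 had no counts.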

How the data were processed

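RNA of sorted brain macrophages was measured in 10 mice, each a separate sample per the labels. The labels' protocols name a low-input kit without strand marking and an input of 500 pg RNA. Per the submitters' processing notes the authors used bcl2fastq 2.20, STAR 2.7.8a and featureCounts 2.0.2. The genome build, annotation and strand setting are not stated in the labels used here. The deposited values are raw counts per gene symbol, and 22778 genes had any count. Genes were kept by edgeR's filterByExpr (minimum count 10, total 15), scaled by TMM, and tested with edgeR 4.0.16 (robust quasi-likelihood, R 4.3.3) over all 10 libraries, with Benjamini-Hochberg adjustment over 14023 genes and a threshold of 0.05. CPM per kilobase used exon lengths of GENCODE vM21, which held 93.5% of the symbols. Alternatives used DESeq2 1.42.0, limma 3.58.1 (voom), other filters and scalings, title letters, a replicate block, and each library left out. The letter contrast, the difference of allele steps and the summed paralog pairs were added after seeing the data. Members and lists were chosen with earlier results of these data known. Named genes were all members, any called gene and the 3 most abundant tested genes of each lectin or glycan list, the 5 profiles closest to Mrc1, Clec10a and Cd209f, and the 4 nearest genes on each side of Mrc1. Intervals are 95% intervals from the fit, and floors cover counting error only. A gene that this rule names is not reported here.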

Additional observations from a re-analysis of the deposited data

Results flagged for a closer look

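Of 8 groups of 4 homozygous values compared by Dixon's criterion, 2 had 1 library apart from the other 3. Mrc2 was at 16.6 CPM in homozygous replicate 2 and at 0 in the other homozygous libraries, where any count in 1 library meets the criterion, so it says nothing about how unusual that library is. Cd209f was at 394.9 CPM in homozygous replicate 4, where the others lay between 370 and 374 CPM, and chance flags about 1 in 20 groups.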

How the results depend on the processing

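Of 594 values of members under the alternatives, 564 kept their direction and side of the threshold, 5 newly passed, 1 no longer passed and 24 turned sign, all 24 in members that had not passed. With DESeq2, 290 genes and 2 members (Mrc1, Clec10a) were called in homozygotes against wild type, 236 and 2 (Mrc1, Mrc2) in heterozygotes, 123 and 2 (Mrc1, Mrc2) between homozygotes and heterozygotes, and 179 and 2 (Mrc1, Clec10a) per allele; the cause was not tested. With the title letter as a covariate 17 genes were called in homozygotes against wild type and 1 between homozygotes and heterozygotes. With only the 2 genotypes compared, on fewer samples, these were 2 and 1. Without robust estimation 1 was called between homozygotes and heterozygotes, and limma-voom called 12 per allele. Without 1 library each, called genes ranged from 2 to 12 in homozygotes against wild type (12 without wild type replicate 3 and 2 to 5 without any other), with Mrc1 called each time, from 1 to 2 between homozygotes and heterozygotes, and from 2 to 6 per allele.

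Replicate numbers did not pair the samples: over 8 same-numbered pairs the correlation of deviations was -0.0177 to 0.0711, and 1 of 10 libraries correlated best with its own number. With the replicate block, 1 gene was called in homozygotes against wild type, 1 between homozygotes and heterozygotes and 0 per allele, with 0 members per allele (Mrc1 -1.49, edgeR adjusted p = 0.0985), and M6pr in heterozygotes turned to 0.0590.

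Over left-out libraries the log2 values in homozygotes against wild type ran from -0.80 to 0.85 for Mrc2, -0.27 to 0.16 for Lman1, -0.0401 to 0.42 for Cd209f (lowest without wild type replicate 1) and -0.33 to 0.14 for M6pr (highest without wild type replicate 3). In heterozygotes they ran from -0.36 to 0.0949 for Cd209f, -0.24 to 0.25 for M6pr and -0.38 to 0.0301 for Lman1. Between homozygotes and heterozygotes they ran from -0.0759 to 0.24 for Lman1 and -0.20 to 0.0189 for Clec4n. Per allele they ran from -0.23 to 0.60 for Mrc2, -0.13 to 0.0874 for Lman1 and -0.16 to 0.0489 for M6pr.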
